A study of Mus musculus with 22 samples.

Results

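The genes described here encode the proteins of the cytosolic ribosome. They were chosen by symbol, as every Rpl and Rps symbol with a number and at most a short suffix (a, x, y, l or p, with or without a digit), together with Rpsa, Rplp0, Rplp1 and Rplp2, and without the S6 kinase genes. The rule found 106 of the 30146 probes of the table, which belong to 80 of its 21450 gene symbols. Of these genes, 30 encode small-subunit proteins (the Rps genes and Rpsa) and 50 encode large-subunit proteins (the Rpl and Rplp genes), 61 have 1 probe, and 19 have 2 to 4. After a filter on low counts 94 probes and 76 genes remained for a comparison of levels, and the other members are accounted for below.

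Whole pancreas of C57Bl/6 mice was profiled on the day of birth with TempO-Seq, a targeted assay that ligates pairs of detector oligonucleotides on a transcript and counts the ligated products by sequencing. Dams had been injected subcutaneously 2 times a week with corn oil, the control, or with 20 ng/kg per day of TCDD (a chlorinated dioxin that activates the aryl hydrocarbon receptor), from before mating to birth, so that pups were exposed only through the dam. By the labels, 4 libraries came from dams under corn oil and 4 from dams under TCDD, while pups gave 3 libraries of either sex under corn oil and 4 of either sex under TCDD. Each library was from 1 animal, and a litter gave 1 male and 1 female pup. Library totals ranged from 11223816 to 34911410 counts, and 3 counts, the level taken as the floor, correspond to 0.0859 to 0.267 counts per 1000000 (CPM). The label of stage did not follow the stage genes in 8 libraries. Libraries were therefore described in 2 classes set by the data: 14 of newborn type, with more counts of Afp (alpha-fetoprotein, a fetal plasma protein) than of Pnlip (pancreatic lipase, a product of mature acinar cells), and 8 of adult type, with the reverse. The class was not close to its threshold in any library, since the nearest newborn-type library had a log2 ratio of Afp to Pnlip of 3.05 and the nearest adult-type library one of -15.1. The newborn type held 4 libraries labelled dam and 10 labelled pup, of which 8 carried the control label and 6 the TCDD label. The adult type held 4 labelled dam and 4 labelled pup, with 2 control and 6 TCDD labels. By the labels 4 dams had received each chemical. If the class follows stage, the chemical labels of some libraries are therefore in doubt as well, which was not tested. Because the class was set from these counts and the genes were picked with class differences known, values by class are given as a description with no test. In whole tissue, fewer cells of a type and less RNA per cell cannot be told apart.

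Ribosomal proteins assemble with ribosomal RNA in the nucleolus and cytoplasm, in near equal numbers of each protein per ribosome. Their messenger RNAs are among the most abundant of a cell and start with a terminal oligopyrimidine (TOP) tract, through which the mTORC1 kinase and the RNA-binding protein Larp1 control their translation. Acinar cells of the pancreas are filled with ribosomes on the rough endoplasmic reticulum, where digestive enzymes are made. A few ribosomal proteins have a paralog made from a separate gene, such as Rps27l for Rps27 and Rpl22l1 for Rpl22, and the paralog can take the partner's place in the ribosome.

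RefSeq gave a promoter (250 bases before to 50 after the annotated start, build GRCm38.p6) for 60 of the 80 genes. The 30 bases around the start are printed for 6 genes on which the shares and paralog ratios described further on turn. The longest unbroken run of C and T is in capitals, and the annotated start lies after the 15th base.
Rps27 (chr3:90213634-90213663, minus strand): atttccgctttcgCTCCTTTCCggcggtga
Rps27l (chr9:66946071-66946100, plus strand, the first of its annotated starts): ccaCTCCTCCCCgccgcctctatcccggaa
Rpl22l1 (chr3:28805493-28805522, plus strand): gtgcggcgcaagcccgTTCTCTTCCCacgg
Rps15a (chr7:118116133-118116162, minus strand): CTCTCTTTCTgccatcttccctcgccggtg
Rpl36a (chrX:134585639-134585668, plus strand): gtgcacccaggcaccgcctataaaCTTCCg
Rpl10 (chrX:74270801-74270830, plus strand): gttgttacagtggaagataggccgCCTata

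Rps27, its paralog Rps27l and Rpl22l1 each had a run of 9 or 10 pyrimidines in this window, as did Rps15a. The longest runs of Rpl36a and Rpl10 were 5 and 3 bases. Of the runs of 9 or 10, only that of Rps27 crossed the annotated start. Those of Rps27l and Rps15a ended before it, and that of Rpl22l1 began after it. A run was counted wherever it lay in the window, so it need not be a TOP tract. At a further annotated start of Rps27l the longest run was 4, and at the starts of Rpl22, the partner of Rpl22l1, it was 4 and 5. Over the 60 members with a promoter, 25 (41.7%) had a run of at least 8 pyrimidines on the gene's strand in this window, against 13.9% of 27025 genes with a promoter. The letters CCGGAAG, the core bound by ETS factors such as GABP, occurred on either strand in 23 of the 60 promoters (38.3%, against 9.93% of all genes), and AAGATGGC, the core bound by YY1, in 6 (10%, against 3.19%). CACGTG, the E-box read by Myc, was in 6 (10%, against 8.09%), and TATAAA on the gene's strand was also in 6 (10%, against 9.77%). The last letters of CCGGAAG can also be the first of AAGATGGC, so these matches can overlap. The shares describe letters in a window around annotated starts, which can differ from the starts used in pancreas.

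Cytosolic ribosomal protein transcripts took a larger part of the newborn-type libraries. Their probes held 2.56 to 3.59% of all counts in the 14 newborn-type libraries (median 3.36%) and 1.23 to 1.39% in the 8 adult-type libraries (median 1.29%). On the scale of the library total the summed signal was 25571.6, 33576.8 and 35855.8 CPM (lowest, median and highest) in newborn type and 12314.2, 12908.5 and 13898.7 CPM in adult type, a log2 difference of medians of 1.38, or 2.60-fold higher in newborn type. The classes did not overlap, and the lowest newborn-type value was that of the library labelled control dam 4, which is also the deepest.

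The direction of this difference depended on the scaling. Few probes made up most of the adult-type libraries, in which the 20 most abundant probes held 69.8 to 74.7% of the counts, against 47.1 to 59.6% in newborn type. TMM scaling, which sets libraries to each other by the bulk of their probes, gave factors of 0.355 to 0.576 in adult type and 1.22 to 1.88 in newborn type. After TMM the summed signal was 18722.0, 19964.8 and 23086.7 CPM in newborn type and 23829.4, 30797.4 and 36330.0 CPM in adult type. The classes again did not overlap, but now the adult type was higher, by 1.54-fold (log2 -0.63, newborn minus adult).

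**Figure D1:**
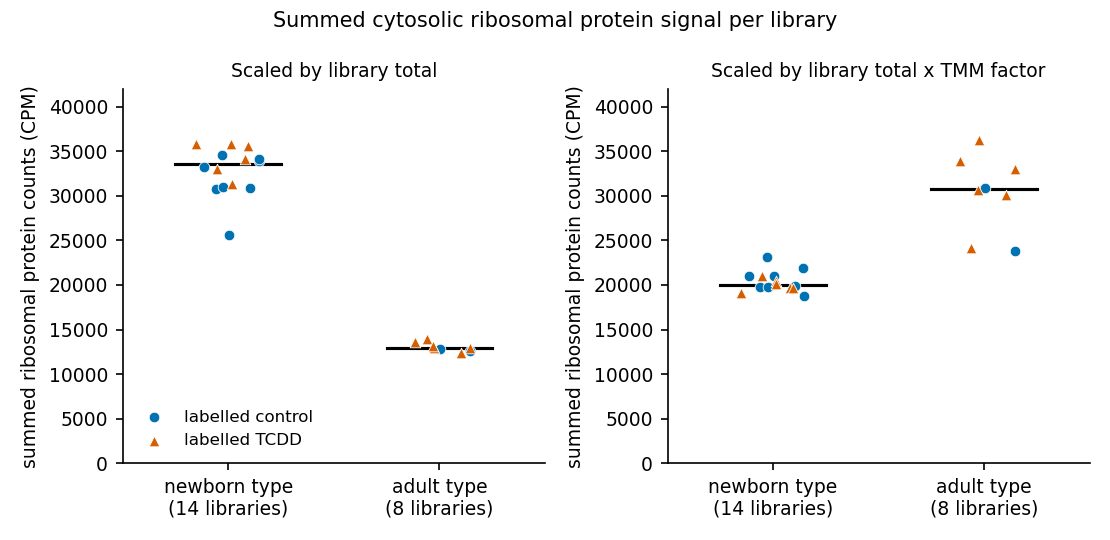
Summed counts of all 106 ribosomal protein probes per library, in CPM of the library total (left) and of the library total multiplied by the TMM factor (right). Each point is 1 library, its colour and shape give the chemical label, and the line is the class median. Newborn-type libraries are all higher on the left (median 33576.8 against 12908.5) and all lower on the right (19964.8 against 30797.4).

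What did not depend on the scaling was the place of the ribosomal protein probes among all probes. The median log2 difference over 16129 probes with a signal in both classes was 0.07 after TMM and 1.98 on the library total, and the median ribosomal protein probe lay at -0.58 and 1.35. It was thus 0.65 and 0.63 log2 units below the median probe, in the direction of adult type (members minus all, -0.65 after TMM and -0.63 on the library total). With DESeq2 size factors, the upper quartile, or the total without the 100 most abundant other probes, the gap lay between -0.65 and -0.64. All 94 member probes fell below the median probe under each of these 5 scalings. A change of scaling moves all probes by nearly the same amount, so this agreement was nearly fixed in advance and is not separate support. As a description, ribosomal protein probes were lower in newborn type relative to the median probe, while as a part of all counts they were higher.

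Counted gene by gene after TMM, all 76 genes had a lower median in newborn type than in adult type (median log2 -0.58). The adult-type libraries lay wholly above the newborn-type libraries for 27 of 94 member probes, against 8.85% of all 16760 probes, and for 22 of the 76 genes. No member probe had all newborn-type libraries higher on this scale, against 11.5% of all probes. On the library total the 76 genes all had the higher median in newborn type (median log2 1.36) and every newborn-type library was higher for 92 of 94 probes, against 68% of all probes. No member had every adult-type library higher there, against 0.406% of all probes. The rule drew on this contrast, so nothing is read from these counts.

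The 29 small-subunit genes compared had a median log2 difference of -0.56 after TMM, and the 47 large-subunit genes one of -0.63. Small-subunit genes made up 35.4, 36.2 and 37.3% of the ribosomal protein counts in newborn type and 34.4, 35.2 and 35.7% in adult type. These ranges overlapped, although the newborn-type median lay above every adult-type library.

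Among the small-subunit genes, Rps6, the protein that S6 kinase phosphorylates, was at 390.8, 447.3 and 512.3 CPM after TMM in newborn type and at 574.6, 764.6 and 896.4 CPM in adult type, without overlap. Rps3, which lies where messenger RNA enters the ribosome, was at 97.8 to 126 CPM (median 110) in newborn type and at 129 to 184 CPM (median 165) in adult type, likewise without overlap. Rps19, mutated in Diamond-Blackfan anaemia, had medians of 279 and 432 CPM, and its ranges of 255 to 326 and 368 to 488 CPM did not meet. For Rpsa, also known as the laminin receptor, the ranges overlapped, with 449 to 641 CPM (median 497) in newborn type and 606 to 1036 CPM (median 919) in adult type. Rps25, needed for initiation on some internal ribosome entry sites, overlapped too, with medians of 278 and 491 CPM. Rps27a is made as a fusion with ubiquitin, and its classes overlapped at 473 to 592 CPM (median 511) and 469 to 748 CPM (median 652). The X-linked Rps4x had low signal at 8.97 to 15.3 CPM (median 12.1) and 10.9 to 22.03 CPM (median 15.6).

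Among the large-subunit genes, Rpl5 and Rpl11, which bind ribosomal RNA together and hold Mdm2 when free of the ribosome, were higher in every adult-type library. Rpl5 was at 336 to 418 CPM after TMM (median 352) in newborn type and at 457 to 762 CPM (median 586) in adult type. The values of Rpl11 were 143 to 196 CPM (median 176) and 204 to 365 CPM (median 313). Rpl13a, a member of an interferon-induced translational repressor complex, also stood without overlap, at 705 to 853 CPM (median 771) and 989 to 1297 CPM (median 1196). Rpl38, required for normal axial patterning in mouse embryos, had medians of 268 and 441 CPM with ranges that overlapped. The stalk proteins Rplp0, Rplp1 and Rplp2, which recruit translation factors, overlapped between classes and had log2 differences of -0.58, -0.89 and -0.48. On the library total each gene of these last 2 paragraphs had the opposite direction, with every newborn-type library higher.

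Levels cannot be compared between these genes, because probes of 1 gene differed widely in yield. The lowest and highest probe medians were 0 and 786 CPM of the library total for Rps27a, 0 and 256 CPM for Rps19, 0.260 and 531 CPM for Rpl7, 9.80 and 249 CPM for Rpl19, and 44.8 and 633 CPM for Rps13. Differences between classes, by contrast, were close between probes of a gene. In the 16 genes with 2 or 3 probes past the filter, the log2 class difference varied between probes by a median of 0.07 and at most 0.18 (Rplp0), while over the 76 genes it had an SD of 0.25. The 12 probes that did not pass the filter were 2 of Rps27a, 2 of Rps19, 1 of Rpl7, the single probes of Rps16, Rpl10l and Rpl39l, and the 4 probes of Rpl3l. Rps16, a core small-subunit protein, gave at most 15 counts in any library, too few to compare. Rpl10l and Rpl39l, paralogs known from testis, gave at most 8 and 4 counts. Rpl39l had no count in any of the 14 newborn-type libraries, where 3 counts is the limit that a count of 0 allows. Rpl3l, the striated muscle paralog of Rpl3, had 5 to 26 counts in each newborn-type library (median 10), and in adult type 2 of 8 libraries had any count, with at most 12.

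To remove the scaling altogether, each gene was expressed as a percent of the ribosomal protein counts of its library. Shares differed by class between log2 -0.58 and 0.70, with the middle 50% of genes between -0.13 and 0.17. Within a class the SD of a gene's log2 share had a median of 0.11 in newborn type and 0.12 in adult type.

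Rps27l, a small-subunit protein and known p53 target, Rpl10, a large-subunit protein that joins late in assembly, and Rpl32, also of the large subunit, had a larger share in every adult-type library. Rps27l took 1.08 to 1.40% (median 1.25%) of ribosomal protein counts in newborn type and 1.58 to 2.03% (median 1.87%) in adult type. Rpl10 took 0.842 to 1.04% (median 0.930%) and 1.20 to 1.53% (median 1.32%). Rpl32 took 4.68 to 5.39% (median 5.12%) and 5.95 to 7.07% (median 6.91%). These were 3 of the 76 genes compared. By probe, 5 of 94 members had every adult-type library above every newborn-type library on this scale, against 3.02% of all 16760 probes. These 3 genes were also among the lowest after TMM, with log2 differences of -1.19, -1.21 and -1.07. Further genes with a larger adult-type share at the median overlapped between classes. Rpl41, which encodes a very short basic protein, went from 0.0168 to 0.0249% on few counts. The small-subunit Rps28 went from 0.520 to 0.691%, and Rpl22l1 from 1.77 to 2.11%.

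At the other end, 6 of the 76 genes had a larger share in every newborn-type library. By probe, 5 of 94 members did so, against 22% of all probes. Rpl10a, Rpl36a, Rps15a and Rps27a were among these 6 genes. Rpl36a took 0.379 to 0.474% (median 0.407%) in newborn type and 0.260 to 0.332% (median 0.287%) in adult type. For Rps15a the shares were 1.04 to 1.31% (median 1.23%) and 0.807 to 0.972% (median 0.912%). Rpl10a, a protein of the L1 stalk through which spent transfer RNA leaves, had 2.65 to 2.96% (median 2.84%) and 2.07 to 2.40% (median 2.16%). The widest difference at the median was that of Rps27, a zinc-binding small-subunit protein, at 0.429 to 0.763% (median 0.563%) against 0.264 to 0.524% (median 0.347%), and its classes overlapped. Rpl34 and Rpl29 also had higher newborn-type medians, 1.42 against 1.08% and 0.424 against 0.350%, with overlap.

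**Figure D2:**
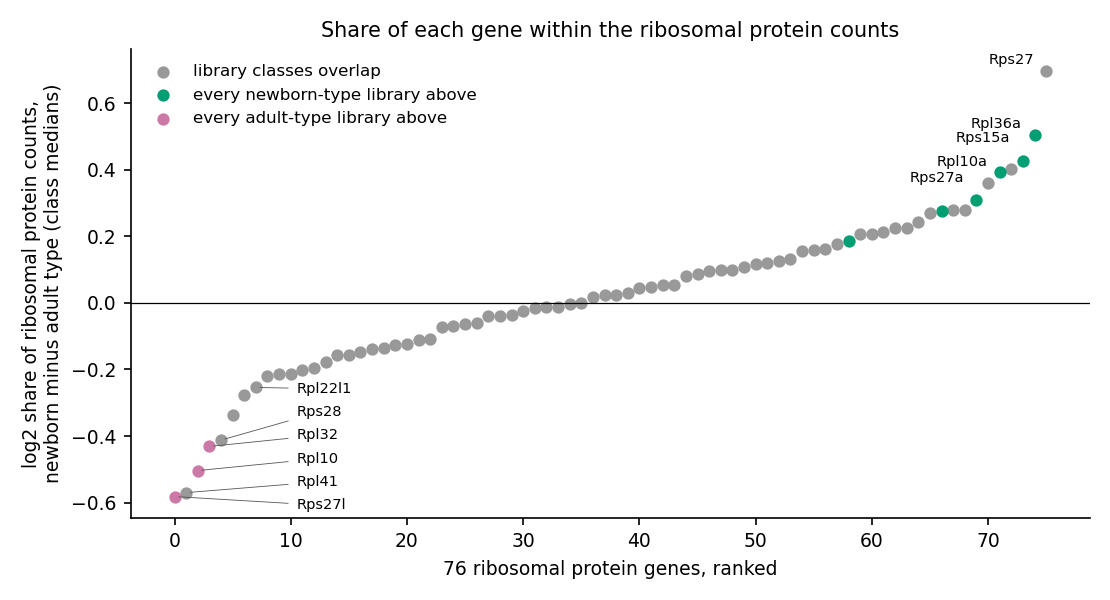
Log2 difference between class medians, newborn minus adult type, of each gene's share of the ribosomal protein counts, for 76 genes in rank order. Each point is 1 gene, and colour shows whether the libraries of the classes overlap. Rps27l, Rpl10 and Rpl32 lie at the lower end with no overlap (-0.58, -0.50 and -0.43), and Rps27 lies highest (0.70) with overlap.

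Pairs of paralogs were compared as ratios within a library, which need no scaling. For each 100 counts of Rps27 there were 177, 213 and 272 counts of Rps27l (lowest, median and highest) in newborn type and 352, 537 and 670 in adult type, a 2.53-fold higher median in adult type with no overlap. With the most abundant probe of each gene alone, the medians were 139 and 356. Rpl22l1 stood at 40.3, 48.0 and 53.3 counts per 100 of Rpl22 in newborn type and at 57.2, 68.1 and 69.8 in adult type, 1.42-fold higher without overlap. Rpl22 binds RNA outside the ribosome and is known to repress Rpl22l1. Rpl36al, the paralog of Rpl36a that the symbol rule does not take in, gave 360, 410 and 481 counts per 100 of Rpl36a in newborn type and 852, 954 and 1073 in adult type, 2.33-fold higher without overlap. For Rpl7l1 no difference was seen, on only 6 to 61 counts per library. It gave medians of 0.383 and 0.372 counts per 100 of Rpl7, and the adult-type range of 0.165 to 1.07 held the newborn-type range of 0.299 to 0.629. The log2 SD of this ratio was 0.87 in adult type, so a difference as small as that of Rpl22l1 could be missed. Rpl3l, Rpl10l and Rpl39l had too few counts for a ratio to Rpl3, Rpl10 and Rpl39, and no paralog of Rps4x was among the members. A ratio between 2 genes reflects probe yield as well as transcripts, so its level has no meaning by itself, and near-identical paralogs can share signal. The ratios show unequal change between partners and not which partner changed. How often ratios of other gene pairs separate the classes was not counted, so nothing is read from the lack of overlap. Set against the ribosomal protein counts, 22% of all 16760 probes had every newborn-type library higher and 3.02% every adult-type library higher. After TMM, Rps27 had medians of 109.5 and 110.9 CPM in newborn and adult type and Rps27l of 252 and 575 CPM, whereas on the library total Rps27 had 180 and 45.8 CPM and Rps27l 398 and 244 CPM.

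**Figure D3:**
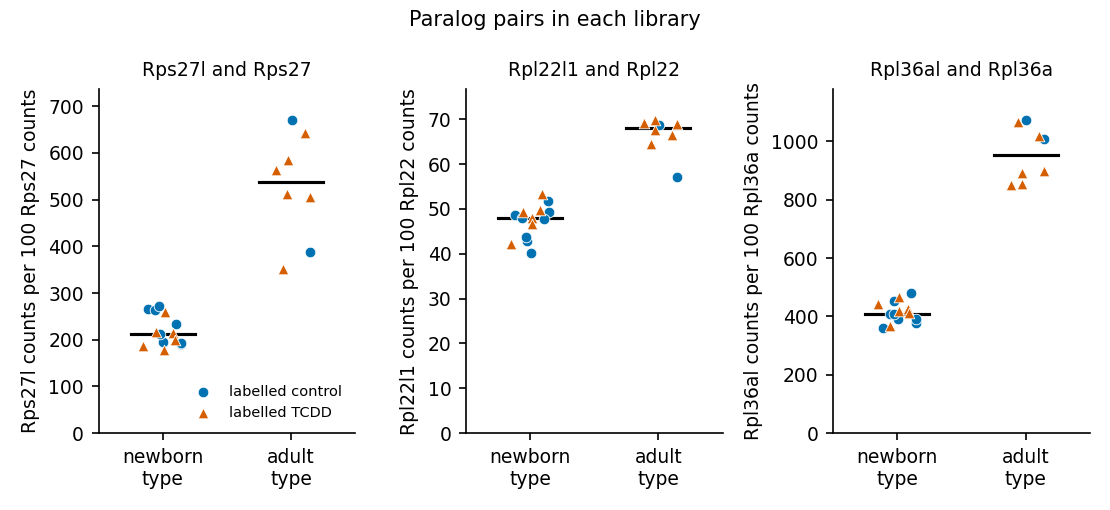
Counts of Rps27l per 100 of Rps27, of Rpl22l1 per 100 of Rpl22 and of Rpl36al per 100 of Rpl36a in each library. Points are single libraries by chemical label, lines are class medians, and each axis starts at 0. In each pair all 8 adult-type libraries lie above the 14 newborn-type libraries, with medians of 537 against 213, 68.1 against 48.0 and 954 against 410. How often ratios of other gene pairs separate the classes was not counted.

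Other genes of translation and its control were compared through lists. Values are log2 differences of class medians after TMM, newborn minus adult, beside 0.07 for the median probe. Of all probes, 8.85% had every adult-type library higher and 11.5% every newborn-type library higher on this scale, and the counts below are to be read against these shares. The 4 ribosomal protein genes whose symbols fall outside the rule had a median of -0.68 over 4 probes. Of these, 2 had every adult-type library higher, Rpl36al (-1.28) among them, and 0 every newborn-type library higher (0 and 3 on the library total). Translation factors with TOP transcripts had a median of -0.60 over 27 probes, of which 9 had every adult-type library higher and 2 every newborn-type library higher (0 and 20 on the library total). Within that list Eef2, the translocation factor, was at 107 to 166 CPM (median 136) in newborn type and 174 to 317 CPM (median 242) in adult type. Pabpc4, a poly(A)-binding protein, and Hnrnpa1, a splicing factor, marked its ends at -1.38 and 0.91. Factors that regulate ribosome production through mTORC1 and Myc had a median of -0.48 over 42 probes, 7 of them with every adult-type library higher and 0 with every newborn-type library higher (0 and 19 on the library total). Rragd, a Rag GTPase that recruits mTORC1 to lysosomes, stood at -1.98, and Rragc, at the other end with 1.144, was near the floor, at a median of 0.216 CPM in adult type. Mitochondrial ribosomal proteins, which form a separate ribosome, had a median of -0.39 over 93 probes, with 15 adult-type and 1 newborn-type higher throughout (0 and 67 on the library total), between Mrps21 (-1.41) and Mrps9 (0.63).

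Ribosome biogenesis factors lay nearer the median probe than the ribosomal proteins did. Their median was 0.18 over 71 probes, with 7 newborn-type and 0 adult-type higher throughout (63 and 0 on the library total). After TMM the newborn-type count was close to the share of all probes (11.5%), and the adult-type count lay below it (8.85%). By gene they ran from Pno1 (-0.59), a small-subunit assembly factor, to Nop2 (1.05), a nucleolar RNA methyltransferase. Nucleolin (Ncl), chosen here after its values were seen, was at 224 to 299 CPM (median 259) in newborn type and at 115 to 202 CPM (median 157) in adult type. Set against the ribosomal protein counts of the same library, which needs no scaling, biogenesis factors amounted to 8.25, 8.55 and 9.48 counts per 100 in newborn type and to 3.97, 4.63 and 5.96 in adult type, without overlap. By probe, their median log2 difference on this scale was 0.72, beside 0.65 for the median of all probes. TOP translation factors amounted to 11.6, 12.2 and 12.7 counts per 100 in newborn type and 10.9, 11.5 and 12.2 in adult type, and mitochondrial ribosomal proteins to 5.83, 6.53 and 6.79 and 5.29, 5.62 and 6.23, with overlap in each. On the library total, where 68% of all probes had every newborn-type library higher, the medians of all lists of the last paragraph and of this one were higher in newborn type, from 1.27 for the ribosomal proteins outside the rule to 2.05 for biogenesis factors.

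**Figure D4:**
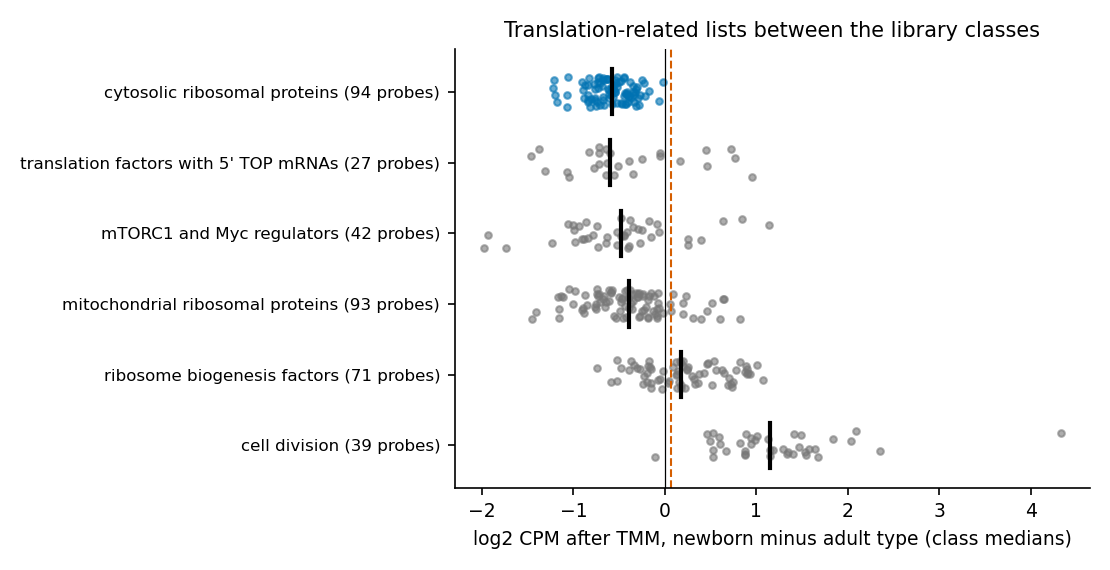
Log2 difference of class medians after TMM, newborn minus adult type, for each probe past the filter in 6 lists. Each point is 1 probe, the black bar is the list's median, and the dashed line is the median of all probes (0.07). Ribosomal proteins, TOP translation factors, mTORC1 and Myc regulators and mitochondrial ribosomal proteins have medians of -0.58, -0.60, -0.48 and -0.39, and biogenesis and cell division genes of 0.18 and 1.15. On the library total all 6 medians are above 0.

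Markers of cell types and of growth differed between the classes beside these values, and their part in them was not tested. Acinar genes summed to 326618 to 397289 CPM of the library total in newborn type and 488473 to 519261 CPM in adult type, and on that scale 15 of 30 probes were higher in every adult-type library and 4 in every newborn-type library. After TMM these counts were 25 and 1. Cell division genes had a median log2 difference of 1.15 after TMM, by gene from Cdc20 (0.55), an activator of anaphase, to Mcm3 (2.64), a subunit of the replicative helicase, with 0 of 39 probes free of overlap after TMM and 34 of 39 higher in every newborn-type library on the library total. The medians of the other lists after TMM were 1.82 for islet cells, 1.61 for duct cells, 2.70 for mesenchymal cells, 1.05 for endothelial cells, 1.17 for immune cells, 1.65 for erythroid cells and 6.77 for liver-type plasma proteins. Every newborn-type library was higher for 8 of 13 islet, 6 of 11 duct, 16 of 18 mesenchymal and 17 of 18 liver-type probes. It was so for 2 of 12 endothelial, 0 of 14 immune and 0 of 7 erythroid probes, against 11.5% of all probes. For 1 duct probe every adult-type library was higher (8.85% of all probes). The endothelial, immune and erythroid sums overlapped between classes. In adult type the immune sum reached 386 CPM, against at most 104 CPM in newborn type.

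The libraries labelled control dam 7 and TCDD female pup 6 stood apart within the adult type. Their summed ribosomal protein signal after TMM was 23829.4 and 24157.5 CPM, against 30075.3 to 36330.0 CPM in the other 6, and their TMM factors were 0.530 and 0.576 against 0.355 to 0.430. On the library total they were at 12619.2 and 13898.7 CPM, against 12314.2 to 13629.0 CPM. Rps27l per 100 of Rps27 was 388 and 352 in them, against 506 to 670. Immune genes summed to 204 CPM of the library total in control dam 7 and to 16.05 CPM in TCDD female pup 6, against 9.83 to 118 CPM in the others. Other lists set both libraries above the range of the other 6 on that scale: biogenesis factors at 753 and 695 CPM against 498 to 642, mTORC1 and Myc regulators at 354 and 433 CPM against 254 to 316, and erythroid genes at 89.7 and 58.1 CPM against 24.1 to 46.1. In control dam 7 alone, cell division genes (262 CPM against 47.1 to 146) and islet genes (378 CPM against 106 to 247) were also above that range. So were its duct genes (60.3 against 33.3 to 58.4), while its acinar genes were below (488473 against 490903 to 519261). In TCDD female pup 6 alone, TOP translation factors (1690 CPM against 1413 to 1519) and ribosomal proteins outside the rule (766 against 632 to 759) were above it. Mesenchymal (118 against 50.2 to 109) and endothelial genes (24.2 against 9.03 to 22.8) were too. Their part in the result was not tested. Without these 2 libraries the class difference of the summed signal was -0.68 after TMM, and the log2 ratios were -1.43 for Rps27l to Rps27, -0.52 for Rpl22l1 to Rpl22 and -1.13 for Rpl36al to Rpl36a. The 2 libraries were picked after their values were seen. They held the lowest adult-type values of the summed signal, Rps27l to Rps27 and Rpl22l1 to Rpl22, so leaving them out could not narrow those differences.

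The study's own question, whether TCDD given to the dam changed the pancreas of dams and pups, was addressed for these genes with the labels, first with the class as a term. The chemical labels were taken as given, although their counts by class put some of them in doubt if the class follows stage. Fits that call no member therefore describe the labels and cannot show that TCDD had no effect. The summed ribosomal protein signal overlapped between the TCDD and control labels in each class. In newborn type the summed signal after TMM was 18722.0 to 23086.7 CPM (median 20407.8) in the 8 control-labelled libraries and 19109.8 to 21051.9 CPM (median 19885.7) in the 6 TCDD-labelled libraries. In adult type the 2 control-labelled libraries were at 23829.4 and 30896.7 CPM and the 6 TCDD-labelled libraries at 24157.5 to 36330.0 CPM (median 31835.2). Over all 22 libraries, edgeR's quasi-likelihood test with Benjamini-Hochberg adjustment called 0 of 94 member probes (0% of 17676 probes called), and 0 members had an unadjusted p under 0.05 (360 of all probes did). The median log2 change of the members was 0.02, with a median SE of 0.09. DESeq2 and limma-voom also called 0 members.

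Within newborn type 0 of 94 members passed (0% of 17109 probes). In edgeR 0 members had an unadjusted p under 0.05 (554 of all probes did). The median log2 change of the members was -0.04 with a median SE of 0.08. The smallest p was that of Rps4x, at 10.3 to 15.3 CPM after TMM (median 12.4) in 8 control-labelled and 8.97 to 13.2 CPM (median 10.8) in 6 TCDD-labelled libraries, groups that overlapped (log2 -0.23 ± 0.11 SE, adjusted p = 1.0 by edgeR). Probes of Rpl22, Rpl35a and Rpsa followed at -0.13, -0.12 and -0.11, and these 3 signs turned with the scaling, to 0.022, 0.038 and 0.043 on the library total, where the change of Rps4x shrank to -0.068.

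Within adult type 0 of 94 members passed (0% of 13513 probes), 2 had an unadjusted p under 0.05 (388 of all probes did), and the median log2 change was 0.18 with a median SE of 0.20, against 0.02 for all probes. This median moved with either of the 2 controls: it was 0.03 without control dam 7 and 0.33 without control dam 5, and it was 0.04 on the library total. Rpl41 was at 3.22 and 5.16 CPM after TMM in the 2 control-labelled libraries and at 4.41 to 10.6 CPM (median 8.34) in the 6 TCDD-labelled ones, a log2 change of 0.95 ± 0.36 (SE, adjusted p = 1.0 by edgeR). Rpl28, a large-subunit protein, was at 200 and 245 CPM and at 235 to 311 CPM (median 303), a change of 0.38 ± 0.16 (SE, adjusted p = 1.0 by edgeR). Both groups overlapped for each probe. Rpl17 and Rps28 followed with 0.36 and 0.43, and the change of Rps28 was 0.06 without control dam 7 and 0.91 without control dam 5. Whether the TCDD difference itself varied between the classes was fitted as an interaction, in which edgeR called 0 of 95 members (0% of 19209 probes). Of the members, 3 had an unadjusted p under 0.05, and the lowest adjusted p was 0.511 by edgeR. How many of all probes had an unadjusted p under 0.05 was not counted there, so the 3 cannot be set against them.

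By labels alone, the fits mixed classes in most groups. In dams 0 members passed (0% of 15594 probes), and 1 had an unadjusted p under 0.05 in edgeR (150 of all probes did). The median change of the members was 0.17 with a median SE of 0.28. That median lay between 0.03 (without TCDD dam 8) and 0.33 (without control dam 5) when each library was left out. Dams as labelled held 2 libraries of each class under either chemical. In female pups 0 members passed (0% of 17513 probes, 0 members under 0.05 unadjusted), with a median of 0.04, and the TCDD group held 1 adult-type library beside 3 of newborn type. The labels of male pups came closest to the classes. There the 3 control libraries, all of newborn type, were at 19781.9, 19832.1 and 23086.7 CPM of summed signal after TMM, and the 4 TCDD libraries at 36330.0, 30075.3, 30698.1 and 19674.0 CPM, the last being the only one of newborn type (TCDD male pup 6). No member passed in edgeR (0% of 16176 probes) or in DESeq2 (3.17% of probes called), 16 of 94 had an unadjusted p under 0.05 (2703 of all probes did), and the median change was 0.48 with a median SE of 0.25, but -0.79 on the library total. Without TCDD male pup 6, when the groups coincided with the classes, 82 of 94 members passed, against 41.9% of 15379 probes, so that the TCDD label and the class cannot be told apart in that fit.

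Pup against dam as labelled, with the class as a term, called 0 of 94 members (0% of 17353 probes, 0 members with an unadjusted p under 0.05 in edgeR), with a median of 0.03 and a median SE of 0.09. Within each class, this fit compares libraries whose stage label conflicts with the class with libraries whose label matches it. If the class follows stage, the fit cannot show an effect of stage. Rpl27a of the large subunit had the smallest p. Its probe was at 57.8 to 88.7 CPM after TMM (median 82.4) in 4 libraries labelled dam and at 68.5 to 127 CPM (median 99.3) in 10 labelled pup within newborn type, with overlap, and the log2 change over both classes was 0.23 ± 0.14 (SE, adjusted p = 1.0 by edgeR). Within adult type the ranges were 97.0 to 175 CPM and 74.2 to 224 CPM.

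**Figure D5:**
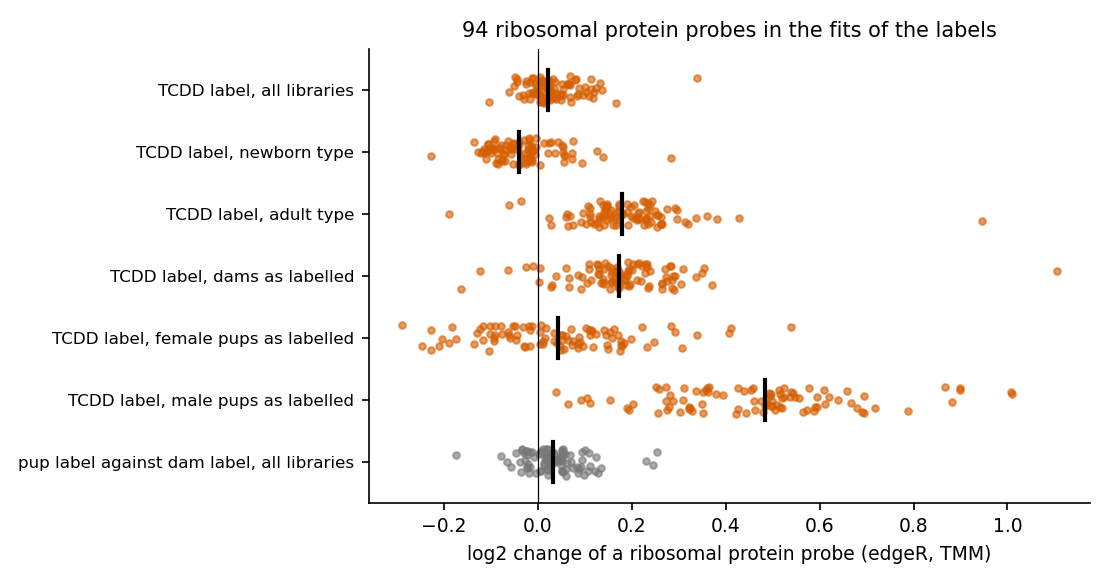
Log2 changes of the 94 member probes in the 7 fits of the labels (edgeR after TMM). Each point is 1 probe and the black bar is the median of the members. Medians lie between -0.04 and 0.18 except in male pups as labelled (0.48, but -0.79 on the library total), and no probe passed an adjusted p of 0.05 in any of these fits.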

How the data were processed

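Whole pancreas RNA of 22 mice was measured with the TempO-Seq mouse whole transcriptome panel, per the labels' protocols. The deposited table held a raw count for each probe and library, which the authors had not normalized. For read conversion the submitters' processing notes name bcl2fastq 2.17.1.14. Aligner and genome build: not given in the sources used here. Counts are reads without molecular identifiers, so intervals and floors cover counting error only.

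Probes were filtered with filterByExpr and tested in R 4.3.3 with edgeR 4.0.16 (TMM, glmQLFit, glmQLFTest, Benjamini-Hochberg over all probes, threshold 0.05). The fit was also run on simulated counts, with changes larger than those of the members in the label fits. There the class was a term wherever classes were mixed, so the simulation does not cover the fits by labels alone as they were run, nor small changes. DESeq2 1.42.0, limma 3.58.1 (voom), other scalings, no filter, gene sums and leaving out each library were alternatives. Gene levels sum the probes of a symbol, and differences are log2 ratios of class medians for genes with a median count of at least 10. Named genes were the paralog pairs, the 6 highest and 6 lowest class differences after TMM, the 4 smallest p of the TCDD and pup fits over the classes, 5 genes by probe spread, a fixed set by function and the ends of each list. Other named genes were chosen after their values were seen, and some genes are not reported here. The members and lists were chosen with earlier results of these data known. The labels' numbers tie a dam to its litter. After class and chemical label were fitted and removed, deviations over all probes past the filter were correlated between libraries of the same class and chemical label. Pairs sharing a number had a median correlation of -0.12 (11 pairs), against -0.13 for other pairs (48).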

Additional observations from a re-analysis of the deposited data

Results flagged for a closer look

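In 42 sets of libraries (a group or class of 4 to 10 libraries and 1 measure each), 6 had 1 library far from the rest by Dixon's criterion, which chance alone meets in about 1 of 20 sets. Among the libraries labelled TCDD female pup, number 6 had 1.39% of its counts in ribosomal proteins (95% Wilson interval 1.38 to 1.40%), against 3.31 to 3.59% in the other 3. Among those labelled TCDD male pup, number 6 had 3.56% (3.55 to 3.57%), against 1.23 to 1.32%. In both sets the library apart is the only one of its class. Within adult type, control dam 7 had 57.2 counts of Rpl22l1 per 100 of Rpl22, against 64.6 to 69.8 in the other 7, and an Rpl32 share of 5.95% of ribosomal protein counts (5.84 to 6.06%), against 6.65 to 7.07%. TCDD female pup 6 had an Rplp0 share of 3.20% (3.13 to 3.27%), against 2.04 to 2.38%, and an Rps13 share of 2.99% (2.92 to 3.06%), against 2.21 to 2.58%.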

How the results depend on the processing

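The class differences depended on the scaling and on no other alternative run. The log2 difference of the summed signal, newborn minus adult, was -0.63 after TMM, 1.38 on the library total and -0.40 on the total without the 100 most abundant other probes, and the median over genes went from -0.58 to 1.36 on the library total. Of 27 alternative values of these differences and of the paralog ratios, 24 kept their direction and stayed within the spread between libraries, and the 132 alternative shares of named genes moved by less than the spread between libraries. The count of member probes called in male pups as labelled was 0 to 82 when each library was left out, 82 without TCDD male pup 6. The other 126 alternative counts of called members were 0, including all with DESeq2 and those that left out each library in the other fits. In newborn type the probes of Rpl22, Rpl35a and Rpsa changed sign on the library total, to 0.022, 0.038 and 0.043. The median change of the members went from -0.04 to 0.12 in newborn type, from 0.04 to -0.15 in female pups and from 0.48 to -0.79 in male pups on the library total, and from 0.02 to 0.23 over all libraries without the class as a term. When each library was left out it ranged from -0.04 to 0.04 over all libraries, from 0.03 to 0.33 in adult type and in dams, and from -0.03 to 0.08 in female pups. The cause was not tested. With the litter number as a replicate block (limma-voom, correlation 0.01) 0 members were called, as without the block. The count of all probes called was 513 by DESeq2 against 0 by edgeR in male pups. Without a filter on low counts it was 112 in adult type and 10 for the pup label, against 0. Leaving out 1 of the 2 adult-type controls leaves a lone library that is assumed to vary like the others. Rps16, Rpl3l, Rpl10l and Rpl39l had too few counts to be compared, and low probe yield cannot be told apart from absent transcripts.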
